A study of Saccharomyces cerevisiae with 2 samples.

Results

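The genes described here are the yeast genes whose standard names are UTP, NOP or RRP followed by a number, read out in 2 strains of Saccharomyces cerevisiae. They were picked by name, by looking up the locus of every gene so named in the R64 annotation, and all 53 of them were found among the 7163 features of the deposited FPKM table (fragments scaled by gene length and library size). There are 18 UTP, 17 NOP and 18 RRP genes. One strain was MF02, labelled as the wild type, and the other was UV02_HG, whose genotype is given only by that name. Both were grown with 40% (w/v) glucose and collected in mid-exponential phase, so no group without high glucose was compared. The labels give 1 sample per strain and the table gives 2 FPKM columns for each. The series speaks of duplicates, and the labels do not say whether the columns are separate cultures or repeat runs. They were counted as 1 sample per strain without deciding between these, so differences between strains have no replicate check, and no p-value is given.

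A growing yeast cell makes ribosomes in the nucleolus, where a long precursor rRNA is transcribed, modified, cut and folded onto ribosomal proteins with the help of many assembly factors. The UTP proteins, named for their association with the U3 small nucleolar RNA, belong to the small-subunit processome, a large particle built around that RNA. NOP stands for nucleolar protein, a name shared by core proteins of the guide particles that modify rRNA and by assembly factors of either subunit. RRP stands for ribosomal RNA processing, a name shared by subunits of the RNA exosome, which trims and degrades RNA from its 3' end, and by assembly factors of both subunits. The name families therefore cut across the machinery, and the genes are ordered below by the particle their products work in. In yeast many of these genes carry the PAC element, bound by the repressors Dot6 and Tod6, or the rRNA processing element (RRPE), bound by the repressor Stb3, upstream of the coding sequence.

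Those elements were searched for as the core letters GATGAG (PAC) and AAAATTTT (RRPE) in the 300 bases before each start codon of the R64 assembly, on both strands. The PAC core stood before 43 of the 53 genes (81.1%), against 19.1% of 5990 gene starts searched, and the RRPE core before 31 (58.5%), against 9.43%. Both cores stood before 26 of the genes (49.1%), against 4.46%. The PAC core was found before 14 of 18 UTP, 16 of 17 NOP and 13 of 18 RRP genes. The RNA exosome genes had fewer matches, with the PAC core before 3 of 7, the RRPE core before 1 and both before none. Neither core was found in this window for RRP42, RRP45, RRP46, UTP22 and UTP30. A match describes these letters only and is not a measured binding site.

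Stretches of 120 bases from the windows of 5 genes follow, chosen among those with a core in the window because their transcripts lay near the low end (NOP58, NOP1) or the high end (RRP36, NOP53, NOP7) of the comparison between strains. They are RefSeq sequence of the R64 assembly, written 5' to 3' on the gene's own strand, at chrXV:898386-898505 (minus strand) for NOP58, chrIV:427129-427248 (plus) for NOP1, chrXV:851857-851976 (minus) for RRP36, chrXVI:277567-277686 (minus) for NOP53 and chrVII:695266-695385 (plus) for NOP7. Capitals mark GATGAG, its reverse complement CTCATC, and AAAATTTT, which reads the same on both strands. None of these coordinates comes from the deposited table.
NOP58: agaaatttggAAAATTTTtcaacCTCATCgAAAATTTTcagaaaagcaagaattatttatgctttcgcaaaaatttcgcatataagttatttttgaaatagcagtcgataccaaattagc
NOP1: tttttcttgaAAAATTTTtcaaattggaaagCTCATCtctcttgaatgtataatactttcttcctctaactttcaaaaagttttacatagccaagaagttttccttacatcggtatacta
RRP36: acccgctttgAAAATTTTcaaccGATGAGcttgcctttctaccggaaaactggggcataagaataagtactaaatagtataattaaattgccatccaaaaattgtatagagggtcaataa
NOP53: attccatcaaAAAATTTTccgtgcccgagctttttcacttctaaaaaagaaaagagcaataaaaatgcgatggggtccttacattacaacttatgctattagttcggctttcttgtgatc
NOP7: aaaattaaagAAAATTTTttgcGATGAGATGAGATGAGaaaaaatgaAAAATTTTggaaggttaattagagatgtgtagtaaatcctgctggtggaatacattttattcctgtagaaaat
The NOP58 stretch holds the PAC core between 2 copies of the RRPE core, and NOP1 and RRP36 each hold 1 copy of both. NOP7 holds 3 overlapping PAC cores between 2 RRPE cores, and NOP53 holds the RRPE core alone. RRP42, which was as low as NOP1 in raw ratio and lower relative to genes of like length, carried neither core in its window.

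Counted reads came to 12796339 and 15144991 in the MF02 columns and to 12507299 and 13040931 in those of UV02_HG. Reads of the 53 genes made up 0.133% (95% exact binomial interval 0.131 to 0.135) of MF02 column 1 and 0.352% (0.349 to 0.355) of MF02 column 2. In UV02_HG their shares were 0.166% (0.163 to 0.168) and 0.159% (0.157 to 0.162). Both were far below MF02 column 2. NOP10 alone held 8563 and 8564 of these reads in UV02_HG, against 3101 and 2628 in MF02. Without it, a choice made after seeing the data, the shares were 0.108% (0.107 to 0.110) and 0.335% (0.332 to 0.338) in MF02 and 0.0971% (0.0954 to 0.0988) and 0.0937% (0.0920 to 0.0953) in UV02_HG. The UV02_HG columns thus lay above MF02 column 1 with NOP10 and below it without. These intervals cover counting error only. FPKM is a share of a library, and in such bulk samples fewer cells that make a transcript and less of it per cell cannot be told apart.

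The columns of MF02 differed widely for these genes. Of the 52 genes that reached 1 FPKM in either strain, 43 were at least 2-fold higher in MF02 column 2 than in column 1, against 28% of all 6291 features that did so, and none was 2-fold lower (10.2% of all). Any higher value in column 2 was seen for 50 of 52 (66% of all). Among these 52 the median log2 ratio of column 2 over column 1 was 1.61, against 0.44 over all features and 0.53 over genes with a coding length. Long genes were higher in column 2 throughout the table, so each ratio was also taken relative to genes of like coding length, by subtracting a running median that takes in 100 expressed genes on either side in order of length. On that length-relative scale 51 of 52 were above 0 (49.7% of all genes with a coding length), with a median of 0.82, and RRP46 at -0.25 was the exception. In 16 of 52 the length-relative value was 2-fold or more, against 6.08% of all. The UV02_HG columns lay closer together, with a median log2 ratio of column 2 over column 1 of -0.05. No gene was 2-fold higher in UV02_HG column 2 (3.78% of all) and 2 were 2-fold lower, RRP4 and RRP1 (4.31% of all). Nothing in the labels says what separates the MF02 columns, and whether they are repeat runs or separate cultures was not tested. Each strain difference below is therefore given against the mean of the columns and, where the answer changes, against each MF02 column.

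**Figure D1:**
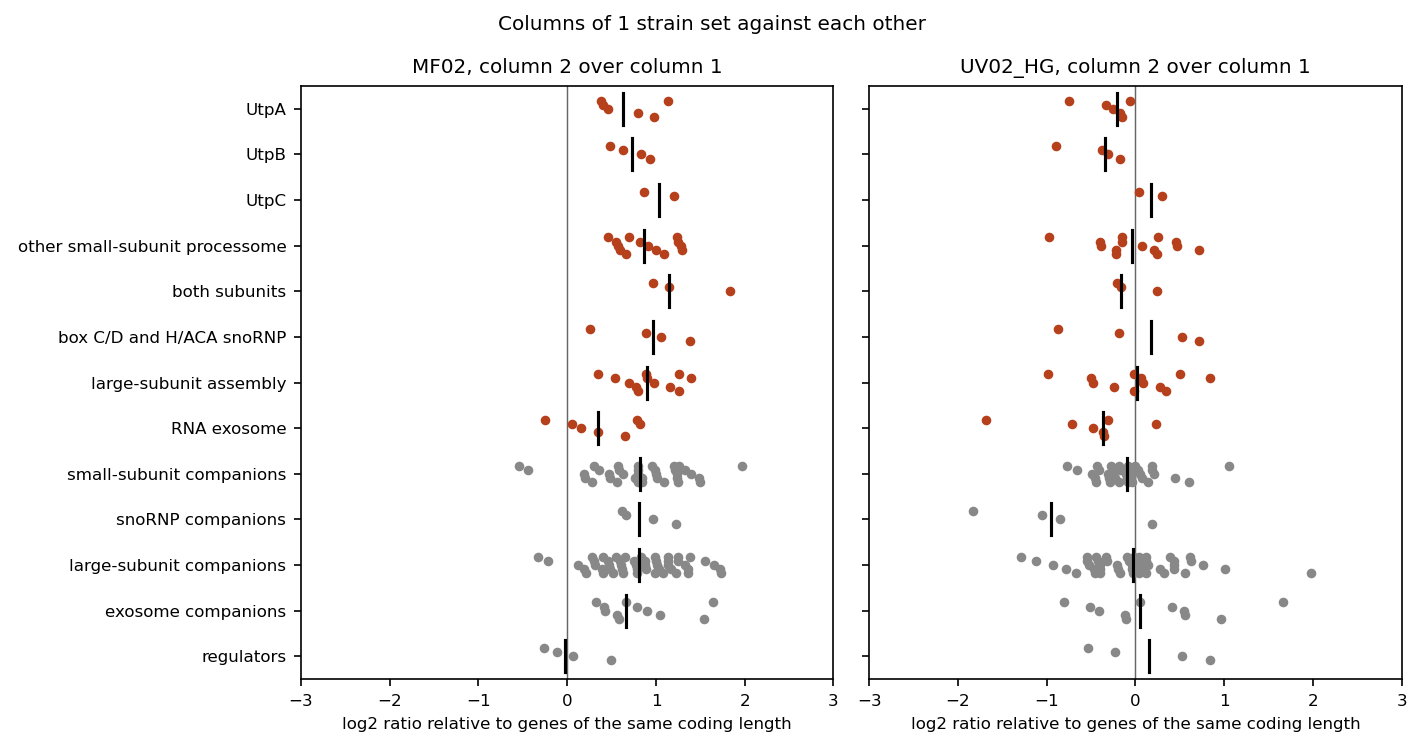
Column 2 over column 1 within MF02 (left) and within UV02_HG (right), as log2 ratios relative to genes of like coding length, for each gene (dots) by class, with the class median as a black bar; red dots are UTP, NOP and RRP genes and grey dots are other ribosome biogenesis genes and regulators. In MF02 all dots of the UTP, NOP and RRP genes but RRP46 lie right of 0, whereas in UV02_HG the classes spread to both sides.

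Between strains, most of the genes were lower in UV02_HG. The log2 ratio of UV02_HG over MF02 was computed as log2((FPKM + 1) of UV02_HG / (FPKM + 1) of MF02) from the column means, which understates differences of weakly expressed genes. Over the 52 genes its median was -1.31, with a range of -3.48 (NOP58) to 2.22 (RRP36), whereas the median over all features was -0.89. The 6291 features behind the raw shares, here and below, include some with no coding length, whereas all 52 genes have one. Over the 5695 expressed genes with a coding length the median was lower, at -1.04. Of these 5695 genes, 2935 were at least 2-fold lower and 609 at least 2-fold higher. At least 2-fold lower were 32 of 52, against 47.2% of all features, and at least 2-fold higher were 2, NOP10 and RRP36, against 14.7%. When the columns were centred on the median feature 11 were lower (20.6% of all features) and 4 higher (28.6%). With trimmed mean of M values scaling 14 were lower (22% of all) and 4 higher (28.6%). Both UV02_HG columns lay below both MF02 columns for 30 genes (56.4% of all features) and above both for the same pair, NOP10 and RRP36 (20.7%). The columns of the strains overlapped for the other 20. Of the 5695 genes with a coding length, both UV02_HG columns lay below both MF02 columns for 3490 and above both for 926. The count of 30 stands close to the background share, so the separation of columns is not a result about these genes.

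Set against genes of like coding length, the group as a whole lay near the middle of the table. The length-relative median was -0.09, or -0.13 without RRP36. On this scale 5 genes were at least 2-fold lower (NOP58, RRP42, NOP1, NOP19 and UTP23), against 16.8% of all genes with a coding length, and 8 were at least 2-fold higher (RRP36, NOP53, NOP7, RRP8, NOP13, RRP3, UTP13 and NOP14), against 17.1%. The remaining 39 lay between, and neither count exceeds its background share. Coding lengths of the 52 ran from 177 nt (NOP10) to 7482 nt (UTP20). Spearman's rho of coding length with the log2 ratio was -0.40 across them (n = 52 genes, a description, since genes share the libraries) and -0.53 across all 5695 genes with a length. With the length-relative ratio it was 0.09 across the 52.

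**Figure D2:**
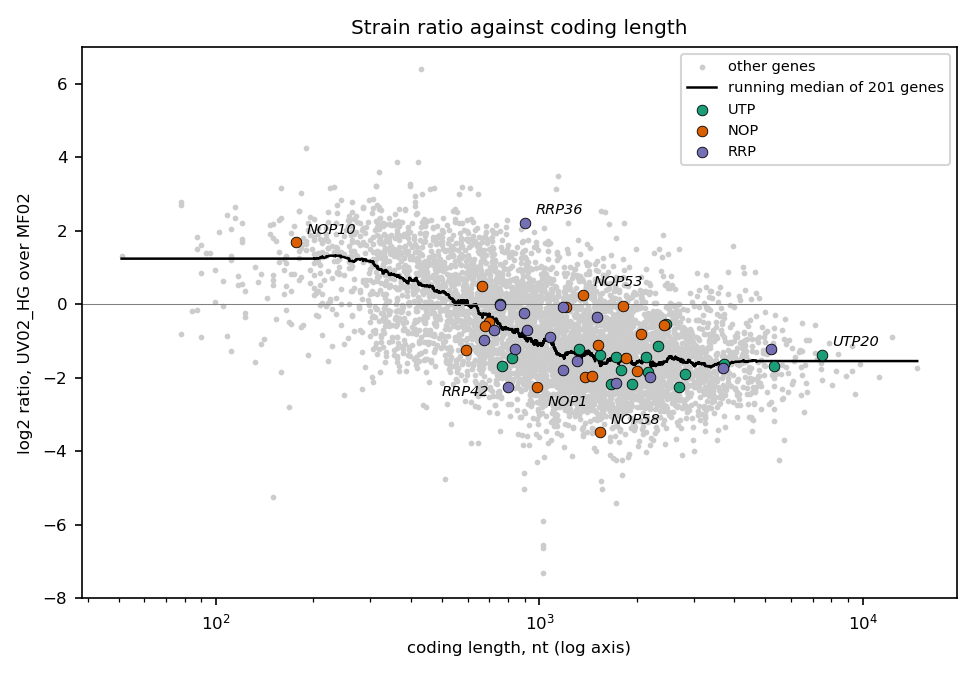
Log2 ratio of UV02_HG over MF02 (column means, FPKM + 1) against coding length in nt (log axis) for all expressed genes (grey), the running median (line) and the UTP, NOP and RRP genes by family. Most members follow the line, with RRP36 at 2.22 far above it and NOP58 at -3.48 far below.

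The answer depended on which MF02 column was used. Against MF02 column 1 the members' median log2 ratios were -0.18 for UV02_HG column 1 and -0.36 for UV02_HG column 2, with 6 and 13 genes at least 2-fold lower (32.6% and 35.1% of all features) and 3 and 6 at least 2-fold higher (12.4% and 15%). Against MF02 column 2 the medians were -1.80 and -1.98, with 36 and 40 genes lower (51.8% and 52.5%) and 2 higher in each (17.5% in each). Relative to genes of the same length the medians changed sign, from 0.56 and 0.48 against MF02 column 1 to -0.29 and -0.36 against column 2. Above 0 on this scale were 39 and 35 genes against MF02 column 1 (49.8% and 49.6% of all genes with a coding length) and 19 and 18 against column 2 (49.7% and 49.6%). Lower by 2-fold or more on this scale were 3 and 1 against MF02 column 1 (18.8% and 15.5% of all) and 6 and 10 against column 2 (18.9% and 17.8%). Higher by 2-fold or more were 14 and 16 against MF02 column 1 (13.2% and 16.9% of all) and 6 and 3 against column 2 (21.3% and 21.6%). The same UV02_HG columns thus stood above genes of like length in one setting and below them in the other. At least 2-fold lower on the length-relative scale in all 4 column comparisons was RRP42 alone, against 7.8% of all genes, and at least 2-fold higher in all 4 were RRP36, NOP53 and NOP7, against 8.17%.

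The name families differed in raw ratio and hardly in length-relative ratio. The median FPKM of the UTP genes was 5.49 and 20.2 in MF02 and 3.48 and 3.49 in UV02_HG. The NOP genes stood at medians of 19.6 and 56.5 in MF02 and 20.8 and 19.3 in UV02_HG. For the 17 expressed RRP genes the medians were 13.5 and 44.7 in MF02 and 19.5 and 8.99 in UV02_HG. MF02 column 2 was the highest in every family, and the UTP genes were the only family whose UV02_HG medians both lay below MF02 column 1. Median log2 ratios were -1.54 for UTP, -0.81 for NOP and -0.97 for RRP genes, and at least 2-fold lower were 16 of 18, 8 of 17 and 8 of 17, beside 47.2% of all features. Against MF02 column 1 these counts were 2 and 5 for UTP, 2 and 1 for NOP and 2 and 7 for RRP genes (32.6% and 35.1% of all features). The UTP genes were also the longest, with a median coding length of 2037 nt against 1380 nt for NOP and 1080 nt for expressed RRP genes. The length-relative medians were -0.09, -0.02 and -0.18, and the difference between families was not tested. Relative to the median of all features (-0.89), the NOP median lay higher by 0.08. The median over genes with a coding length was -1.04.

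The UtpA complex, which joins the nascent precursor first, is made up in this set by 6 UTP proteins. Each of the 6 was lower in UV02_HG by 2-fold or more, with log2 ratios of -2.17 to -1.13, beside 47.2% of all features, but their length-relative ratios ran from -0.57 to 0.51, with a median of 0.12. The size of the raw difference rested on MF02 column 2, and its direction did not. Both UV02_HG columns lay below both MF02 columns for 5 of the 6 genes (56.4% of all features). The class medians against MF02 column 1 were -0.37 and -0.61. Against MF02 column 1 only 0 and 1 of the 6 were at least 2-fold lower (32.6% and 35.1% of all features). UTP5 (YDR398W), a WD-repeat subunit, had 10.9 and 40.4 FPKM in MF02 and 4.97 and 4.88 in UV02_HG. UTP10 (YJL109C), a long HEAT-repeat subunit, had 5.67 and 21.5 in MF02 and 4.58 and 2.57 in UV02_HG. In both genes every UV02_HG column lay below every MF02 column, at log2 ratios of -2.17 and -1.67. At the upper end of the class UTP15 (YMR093W) had 4.56 and 11.4 FPKM in MF02 and 2.70 and 2.24 in UV02_HG. UTP4 (YDR324C) had 4.53 and 26.4 in MF02 and 6.59 and 6.45 in UV02_HG, so its UV02_HG columns lay between those of MF02. Both are WD-repeat proteins, with log2 ratios of -1.38 and -1.13. UTP8 and UTP9, the other subunits, lay within the range of the class at -1.43 and -1.44.

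UtpB joins the particle next, and its 4 genes here had log2 ratios from -1.90 to -0.55. UTP18 (YJL069C), which docks the exosome's helicase Mtr4, had 4.51 and 17.98 FPKM in MF02 and 3.45 and 1.59 in UV02_HG. UTP21 (YLR409C), a WD-repeat subunit, had 5.32 and 22.6 in MF02 and 3.09 and 2.96 in UV02_HG. The strains' columns did not overlap for either, and the length-relative ratios were -0.35 and -0.32. UTP6 (YDR449C) had 3.43 and 12.2 FPKM in MF02 and 3.26 and 2.32 in UV02_HG, a log2 ratio of -1.22. UTP13 (YLR222C), another WD-repeat subunit, had 3.92 and 14.5 in MF02 and 6.35 and 5.59 in UV02_HG. It was the UtpB gene that was less than 2-fold lower, at a log2 ratio of -0.55 and a length-relative ratio of 1.01, with its UV02_HG columns between those of MF02. After a further adjustment for the GC content of the coding sequence that length-relative value was 0.71.

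UtpC is represented by UTP22 and RRP7. UTP22 (YGR090W) had 3.07 and 17.7 FPKM in MF02 and 2.52 and 2.89 in UV02_HG. RRP7 (YCL031C) had 22.7 and 61.0 in MF02 and 33.2 and 37.8 in UV02_HG. These 2 partners differed, with log2 ratios of -1.62 and -0.23 and length-relative ratios of -0.06 and 0.54. The UV02_HG columns of RRP7 lay between those of MF02.

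The other 14 processome genes had log2 ratios from -2.25 to 2.22, with 9 genes at least 2-fold lower (47.2% of all features). Against MF02 column 1 these counts were 2 and 4 (32.6% and 35.1% of all features). UTP14 (YML093W), which activates the helicase Dhr1, had 6.51 and 42.0 FPKM in MF02 and 3.26 and 5.34 in UV02_HG, the lowest ratio of the class at -2.25. NOP19 (YGR251W), a processome protein, had 35.7 and 56.5 in MF02 and 18.4 and 19.3 in UV02_HG. UTP23 (YOR004W), a PIN-domain protein, had 16.9 and 30.6 in MF02 and 6.27 and 7.12 in UV02_HG. In all 3 the strains' columns were separate. NOP19 and UTP23 are short genes, of 591 and 765 nt, and had the lowest length-relative ratios of the class at -1.23 and -1.01. RRP3 (YHR065C), a DEAD-box helicase, had 3.79 and 13.9 FPKM in MF02 and 7.64 and 5.75 in UV02_HG, with the UV02_HG columns inside the MF02 range and a length-relative ratio of 1.04. UTP11 (YKL099C) had 16.1 and 42.5 FPKM in MF02 and 22.9 and 36.4 in UV02_HG, at a log2 ratio of 0.02, again inside the MF02 range. NOP14, the partner of Noc4, had a length-relative ratio of 1.01, and 0.53 once GC content was adjusted for as well. The remaining genes UTP7, UTP20, UTP25, UTP30, NOP6, NOP9 and RRP9, which encodes a protein of the U3 particle, had length-relative ratios from -0.71 (UTP30) to 0.17 (UTP20). Of these, UTP7 (YER082C) had 11.5 and 31.4 FPKM in MF02 and 3.51 and 4.47 in UV02_HG, a log2 ratio of -2.17. RRP9 rested on the fewest reads of any expressed member, 22 in UV02_HG column 2.

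RRP36 (YOR287C), a processome protein needed for early cuts of the precursor, stood apart from its class. It had 3.12 and 8.92 FPKM in MF02 and 28.0 and 35.4 in UV02_HG, so both UV02_HG columns lay above both MF02 columns. The log2 ratio was 2.22, the length-relative ratio was 3.10 (2.39 to 4.06 over the 4 column comparisons), and the ratio of summed reads was 5.07 (95% counting interval 4.27 to 6.06). In R64 the gene lies on the minus strand of chromosome XV and faces RDL2, whose end is 207 nt from its own, with RDL1 882 nt away on the same plus strand as RDL2. RDL1, which encodes a rhodanese-type sulfurtransferase, had 3422 and 1184 FPKM in MF02 and 26229 and 41418 in UV02_HG, a log2 ratio of 3.88. RDL2, which encodes another such enzyme, had 275 and 218 in MF02 and 649 and 361 in UV02_HG, a log2 ratio of 1.03. Thus 2 genes that point toward RRP36 were higher in UV02_HG as well. MPD1, the protein disulfide isomerase gene on its other side, had 76.9 and 115 FPKM in MF02 and 20.6 and 14.7 in UV02_HG, a log2 ratio of -2.38. Whether the counting used strand is not given in the sources used here, and the part of reads from RDL1 or RDL2 in the RRP36 value was not tested.

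RRP5, RRP12 and RRP14 are needed for both subunits. RRP5 (YMR229C), a protein of S1 repeats that binds the precursor, had 5.81 and 33.4 FPKM in MF02 and 8.18 and 7.58 in UV02_HG. RRP12 (YPL012W), a HEAT-repeat protein needed for ribosome export, had 4.11 and 27.7 in MF02 and 4.16 and 3.99 in UV02_HG. RRP14 (YKL082C) had 6.71 and 45.2 in MF02 and 7.47 and 8.99 in UV02_HG. All 3 showed the same picture, with UV02_HG columns at or just above MF02 column 1 and several-fold under column 2. Their log2 ratios of -1.22, -1.73 and -1.55 therefore rested on MF02 column 2. Against column 1 and UV02_HG column 1 they were 0.43, 0.01 and 0.14. The length-relative ratios of the mean were 0.33, -0.18 and -0.23.

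**Figure D3:**
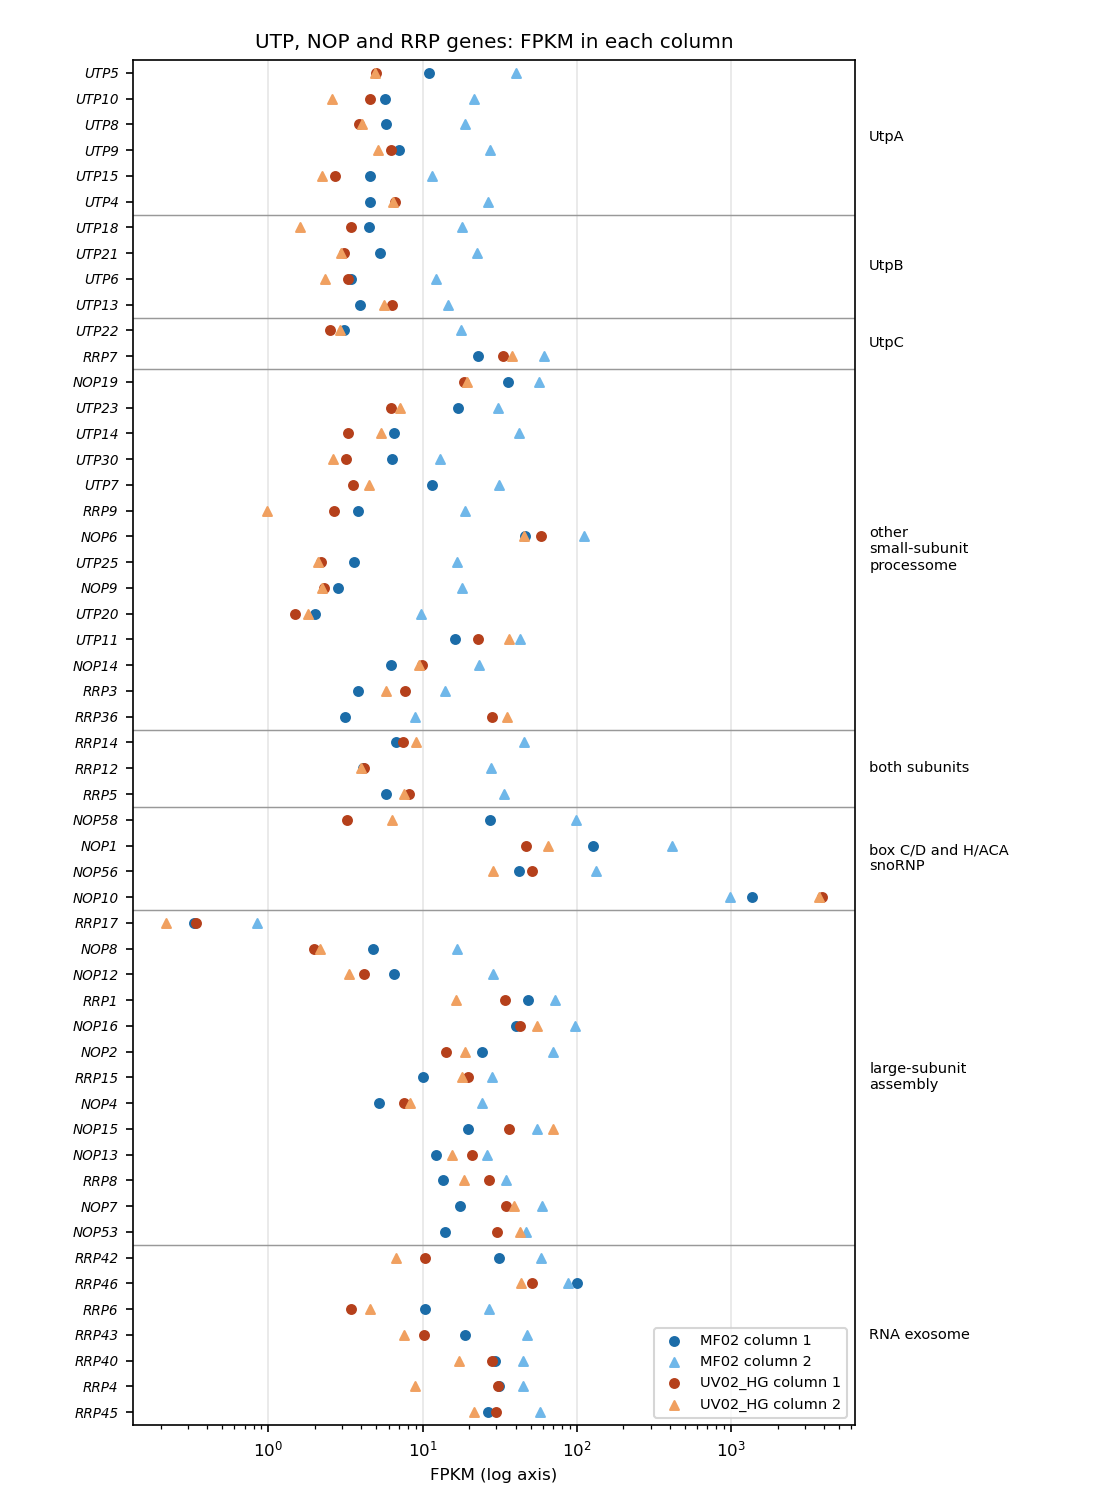
FPKM (log axis) of all 53 UTP, NOP and RRP genes in the 4 columns, with MF02 in blue and UV02_HG in orange to red, grouped by the particle the products work in and ordered by length-relative ratio within each, with RRP17, which has none, first in its class. MF02 column 2 (light blue triangles) is the rightmost point for most genes, with RRP36 and NOP10 as the genes where both UV02_HG points lie right of both MF02 points.

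The core proteins of the small nucleolar ribonucleoproteins lay apart from each other. NOP1 (YDL014W), the yeast fibrillarin that methylates rRNA in box C/D particles, had 128 and 412 FPKM in MF02 and 47.0 and 64.9 in UV02_HG. NOP58 (YOR310C), one of 2 scaffold proteins that hold fibrillarin, had 27.4 and 99.0 in MF02 and 3.23 and 6.29 in UV02_HG. NOP56 (YLR197W), the other scaffold, had 41.9 and 132 in MF02 and 51.1 and 28.4 in UV02_HG. In NOP1 and NOP58 the strains' columns were separate, while in NOP56 they overlapped. NOP58 was 11.1-fold lower on the FPKM + 1 scale, the largest difference among the 53 genes, with a ratio of summed reads of 0.0724 (0.0621 to 0.0839). The length-relative ratios were -1.89 for NOP58, -1.24 for NOP1 and 0.34 for NOP56. NOP1 passed 2-fold on that scale against MF02 column 2 (-2.02 and -1.41) and not against column 1 (-0.74 and -0.06), and it stood at -0.86 after adjustment for length and GC content. For NOP58 the values against column 1 were -1.73 and -0.81. The 3 genes encode parts of 1 particle. Whether their ratios differ beyond the spread of samples could not be tested with 1 sample per strain in the labels.

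NOP10 (YHR072W-A) encodes a small core protein of the H/ACA particles, which convert uridine to pseudouridine. It had 1369 and 980.4 FPKM in MF02 and 3868 and 3710.2 in UV02_HG, by far the highest level of the 53 genes per length. The UV02_HG columns lay above both MF02 columns, and the log2 ratio was 1.69. With 177 nt NOP10 is among the shortest genes, and short genes were higher in UV02_HG in general, so that its length-relative ratio was 0.45. Only 74 of the 5695 genes were as short or shorter, and the running median was held at its end value for them.

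Genes for large-subunit assembly had the highest length-relative median of the 8 classes in the column means. Of 12 expressed genes 4 were at least 2-fold lower (47.2% of all features) and none 2-fold higher (14.7%) in raw ratio, and 4 were at least 2-fold higher relative to length (17.1% of all). The length-relative median was 0.63, against -0.09 for the 26 genes of the small-subunit processome. By column comparison the large-subunit median was 1.05 and 1.43 against MF02 column 1 and -0.14 and 0.24 against column 2, where UtpA lay higher at 0.05 with UV02_HG column 1, and after adjustment for GC content as well it was 0.25. The difference between classes was not tested.

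NOP53 (YPL146C), which brings Mtr4 and the exosome to the spacer between the large-subunit rRNAs, had 14.0 and 46.4 FPKM in MF02 and 30.2 and 42.5 in UV02_HG. NOP7 (YGR103W), which works with Erb1 and Ytm1, had 17.5 and 59.0 in MF02 and 34.8 and 38.8 in UV02_HG. NOP15 (YNL110C), an RNA-binding protein of the same spacer, had 19.6 and 55.2 in MF02 and 36.1 and 69.4 in UV02_HG. The columns overlapped for all 3, with both UV02_HG columns well above MF02 column 1. NOP53 and NOP7 had log2 ratios of 0.26 and -0.05 and length-relative ratios of 1.58 and 1.39. After GC content was adjusted for as well these were 0.80 and 1.05. NOP15 had the highest raw ratio of the class at 0.49. RRP8, an rRNA methyltransferase, and NOP13, an RNA-binding protein, had length-relative ratios of 1.32 and 1.27 and raw ratios of -0.08 and -0.07, and RRP8 stood at 0.92 with GC content adjusted for.

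At the low end of this class NOP8 (YOL144W), an early assembly factor, had 4.73 and 16.8 FPKM in MF02 and 1.98 and 2.16 in UV02_HG. NOP12 (YOL041C), an RNA-binding protein, had 6.51 and 28.6 in MF02 and 4.17 and 3.33 in UV02_HG. Both were separate between strains, at log2 ratios of -1.94 and -1.97 and length-relative ratios of -0.58 and -0.57. NOP2, an rRNA cytosine methyltransferase, NOP4 and NOP16, with RRP1 and RRP15, lay between, from -0.45 (RRP1) to 0.74 (NOP4) relative to length. RRP17 (YDR412W), an exonuclease that works from the 5' end, was the gene that did not reach 1 FPKM in either strain, with 3 and 9 reads in MF02 and 3 and 2 in UV02_HG. The feature with the next systematic name, YDR413C, had at most 0.27 FPKM in any column, and whether shared sequence lowered the RRP17 count was not tested.

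The 7 exosome genes of this set are all named RRP, and 3 of them were at least 2-fold lower in UV02_HG, near the 47.2% of all features. This count changed with the columns used. It was 2 and 5 against MF02 column 1 (32.6% and 35.1% of all) and 3 and 6 against column 2 (51.8% and 52.5%). Both UV02_HG columns lay below both MF02 columns for 6 of the 7 (56.4% of all features). RRP42 (YDL111C), a subunit of the ring, had 31.0 and 58.0 FPKM in MF02 and 10.3 and 6.73 in UV02_HG. RRP46 (YGR095C), another ring subunit, had 100.1 and 87.4 in MF02 and 51.0 and 43.4 in UV02_HG. Both were separate between strains, and RRP46 was the one ring gene of these that was not higher in MF02 column 2. RRP42 had a log2 ratio of -2.26 and a length-relative ratio of -1.58 (-2.13 to -1.18 over the 4 column comparisons), with a ratio of summed reads of 0.186 (0.157 to 0.219). RRP46 had a log2 ratio of -0.97 and a length-relative ratio of -0.71. RRP4 (YHR069C), of the cap that threads RNA into the ring, had 31.3 and 44.9 FPKM in MF02 and 30.9 and 8.95 in UV02_HG. RRP45 (YDR280W), of the ring, had 26.5 and 57.6 in MF02 and 29.9 and 21.4 in UV02_HG. These 2 had the highest length-relative ratios of the class, 0.07 and 0.30, and the columns of RRP4 differed within UV02_HG more than between UV02_HG column 1 and MF02 column 1. RRP6, the nuclear exonuclease, RRP40 of the cap and RRP43 of the ring lay between at -0.41, -0.23 and -0.39. The class median relative to length was -0.39, with 0.22 and -0.22 against MF02 column 1 and -0.41 and -0.78 against column 2. The ring and cap subunits work in equal numbers in the complex, and their FPKM in MF02 column 1 ran from 18.7 (RRP43) to 100.1 (RRP46).

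**Figure D4:**
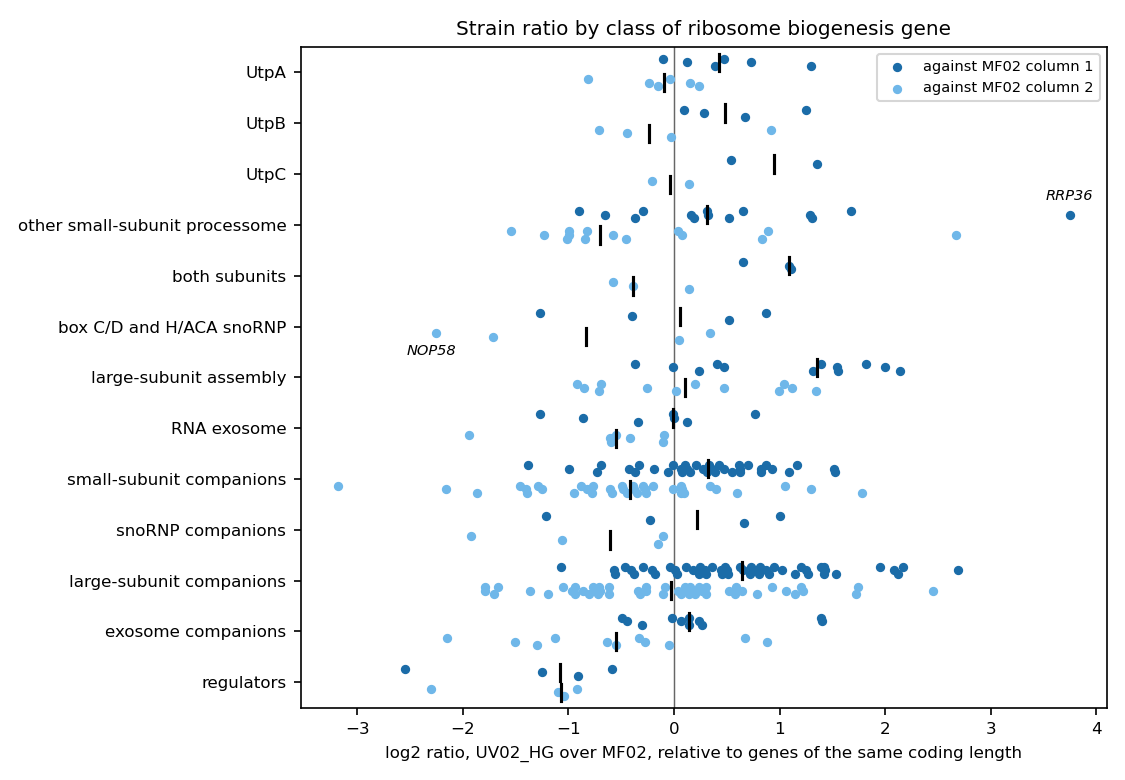
Length-relative log2 ratio of UV02_HG over MF02 by class, for each gene as the mean of its values in the 2 UV02_HG columns against MF02 column 1 (dark blue) and against MF02 column 2 (light blue), with medians as black bars. Dark dots lie right of light dots in most classes, RRP36 is the farthest right, NOP58 is at the far left among the UTP, NOP and RRP genes, and the regulators lie left of 0 against either column.

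The other genes of the pathway gave nearly the same picture. A list of further ribosome biogenesis genes (36 for the small subunit, 50 for the large subunit, 11 of the exosome and 4 of small nucleolar particles), all expressed, had a median log2 ratio of -1.22 and a length-relative median of -0.13, with 65 at least 2-fold lower (47.2% of all features) and 2 at least 2-fold higher (14.7%). Relative to length 14 were lower (16.8% of all) and 13 higher (17.1%) by 2-fold, both below the background share. Against MF02 column 1 the raw count was 14 and 18 lower (32.6% and 35.1% of all). The PAC core stood before 89.1% and the RRPE core before 76.2% of them. Within MF02, 97 of them were above genes of like length in column 2 (49.7% of all genes with a coding length), with a median of 0.80. Small-subunit and large-subunit genes of this list had length-relative medians of -0.20 and 0.24.

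Single genes of that list spread as widely as the UTP, NOP and RRP genes. NIP7, a large-subunit assembly factor, had 72.1 and 80.4 FPKM in MF02 and 465 and 467 in UV02_HG, a log2 ratio of 2.60 and a length-relative ratio of 2.57. BUD21, a processome gene, had 12.5 and 52.0 in MF02 and 3.47 and 4.16 in UV02_HG, with a length-relative ratio of -2.61. Both had separate columns, in opposite directions. Among small-subunit genes ESF2 followed BUD21 at -1.68 relative to length, and NOB1, the nuclease of the last cut, and DIM1, an rRNA methyltransferase, were highest at 1.53 and 1.24. Among large-subunit genes IPI1 and RLP24 were lowest at -1.44 and -1.29, and MAK21 followed NIP7 at 1.83. Of the exosome and its cofactors AIR1 and SKI6 were lowest at -1.68 and -1.06, and PAP2 and MTR4 highest at 1.08 and 0.81.

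The partners of the small nucleolar core proteins differed less between strains in raw ratio than NOP1 and NOP58. SNU13, which belongs to box C/D particles with NOP1, NOP56 and NOP58, had 354 and 394 FPKM in MF02 and 368 and 106 in UV02_HG, with a log2 ratio of -0.66 and a length-relative ratio of -1.30. With UV02_HG column 1 alone the length-relative ratio was -0.37 (MF02 column 1) and -1.05 (MF02 column 2). CBF5, the pseudouridine synthase that binds NOP10, had 53.8 and 210.4 in MF02 and 54.6 and 62.8 in UV02_HG. The columns of both overlapped. GAR1 and NHP2, the other H/ACA proteins, had log2 ratios of -0.74 and 0.72 and length-relative ratios of -0.66 and 0.32.

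The 4 regulators of the pathway listed for this comparison were lower in UV02_HG, whichever MF02 column was used, and the list is not a full set of its regulators. DOT6, a repressor that binds PAC, had 106 and 189 FPKM in MF02 and 6.95 and 11.5 in UV02_HG. TOD6, its paralog, had 10.004 and 19.2 in MF02 and 1.98 and 1.65 in UV02_HG. STB3, the repressor that binds RRPE, had 79.2 and 124 in MF02 and 10.4 and 20.4 in UV02_HG. In these 3 and in SFP1, an activator of ribosome biogenesis genes with 14.0 and 43.9 FPKM in MF02 and 5.22 and 3.66 in UV02_HG, both UV02_HG columns lay below both MF02 columns. Such separation was seen for 56.4% of all features. The log2 ratios were -3.86 for DOT6, -2.47 for TOD6, -2.65 for STB3 and -2.46 for SFP1, beside 47.2% of all features at least 2-fold lower. Relative to length the ratios were -2.31, -0.86, -0.98 and -0.91, so that DOT6 alone passed 2-fold on that scale (16.8% of all genes). All 4 were below 0 relative to length in each of the 4 column comparisons.

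Members with and without the promoter letters were set side by side. The length-relative median was -0.15 over the 42 expressed members with the PAC core and 0.12 over the 10 without it. With the RRPE core it was 0.12 (31 genes) and without it -0.23 (21 genes). With both cores it was -0.07 and otherwise -0.13, over 26 genes each. These medians are a description, and their differences were not tested.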

How the data were processed

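The labels give 1 sample per strain, each with 2 columns of values, and the series speaks of duplicates. Trizol extraction and a NEBNext library kit are given, per the labels' protocols. Bowtie2 2.2.3, TopHat2 2.0.12 and HTSeq 0.6.1 are named, per the submitters' processing notes. The genome build was not given in the sources used here, nor was the strand setting. Deposited values are FPKM as computed by the authors, for 7163 features.

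Locus tags of R64 (NCBI RefSeq) were found for 6045 identifiers, 6010 of them with a coding length. FPKM times coding length gave whole reads (within 0.02) for 99.8% to 99.9% of genes per column, which yielded the library totals. A feature counted as expressed at a mean of 1 FPKM or more in either strain (6291). Ratios used log2(FPKM + 1), with 2-fold as the threshold. With 1 sample per strain in the labels no test was run. The name rule that sets the members, and the lists, were chosen with earlier results of these data known. In each class the genes given by column were the 2 with the lowest and the 2 with the highest length-relative ratio (all in smaller classes), besides the 5 lowest and 5 highest raw ratios. Software was Python 3.11.15 with numpy 2.4.6, pandas 2.3.3, scipy 1.17.1 and, for plots, matplotlib 3.10.9.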

Additional observations from a re-analysis of the deposited data

How the results depend on the processing

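With 1 sample per strain in the labels, differences between strains carry no replicate error. Most group medians and counts moved when MF02 column 1 alone was used in place of the column means. In each column comparison most of the 72 named genes kept the sign of their ratio. No paired analysis was possible because the labels give 1 sample per strain.

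UV02_HG column 1 against MF02 column 1 gave medians of -0.18 (all members), -0.39 (UTP), 0.28 (NOP), 0.0145 (RRP) and -0.32 (other biogenesis genes), with 6 members at least 2-fold lower (32.6% of all features). Relative to length the medians were 0.56, 0.48, 0.67, 0.76 and 0.37 in that order and 0.51 for the small-subunit side, with 3 members lower (18.8% of all genes) and 14 higher (13.2%). Of 72 named genes 21 changed sign in raw ratio, and those past 2-fold in the column means were UTP4 (0.46), NOP56 (0.28), RRP5 (0.43), RRP12 (0.0145), RRP14 (0.14) and CBF5 (0.0210). UV02_HG column 2 against MF02 column 1 gave -0.36 (all members) and -0.50 (UTP), with 13 lower (35.1%) and 6 higher (15%). Relative to length the medians were 0.48, 0.40 (UTP), 0.57 (NOP), 0.60 (RRP), 0.39 (other genes), 1.43 (large-subunit) and 0.43 (small-subunit side), with 1 member lower (15.5%) and 16 higher (16.9%). Here 16 named genes changed sign in raw ratio, of which UTP4 (0.43), RRP5 (0.33), RRP14 (0.37) and CBF5 (0.22) were past 2-fold in the column means. Against MF02 column 2 the large-subunit length-relative median was -0.14 with UV02_HG column 1, and with column 2 the RRP median was -2.01 and 10 members were lower (17.8%) and 3 higher (21.6%) relative to length. The cause of the difference between the MF02 columns was not tested.

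Equal FPKM totals moved the median of all features by -1.08 and gave -2.39 (all members), -2.65 (UTP), -1.98 (NOP), -2.07 (RRP) and -2.40 (other genes). With that scaling 48 members were lower (70.3% of all) and 1 higher (5.29% of all). Upper quartile scaling (shift 0.63) left 18 lower (27.4%). Centring on the median feature (0.89) gave 11 lower (20.6%), 4 higher (28.6%), 0.0820 for NOP and -0.33 for other genes. Trimmed mean of M values scaling (0.87) gave 14 lower (22%), 4 higher (28.6%), -0.0342 for RRP and -0.35 for other genes. Relative to length, 5 members were higher with a pseudocount of 5 FPKM (13.6% of all) and 4 after adjustment for GC content (16.6%), namely RRP36, NOP13, RRP3 and NOP7, and 10 were lower at a 1.5-fold threshold (28.7%). At 4-fold 7 were lower (17.8%) and 1 higher (4.88%) in raw ratio, and 0 lower (2.95%) and 1 higher (3.23%) relative to length. Leaving out RRP36, chosen after seeing the data, left 1 member higher. Of 1728 values of 72 named genes, 166 changed sign, and 10 of these were past 2-fold in the column means. By no more than the spread between columns moved 1344 of the 1728. That spread is the standard deviation over the 4 column comparisons and takes in the gap between the MF02 columns. Those comparisons are also among the 1728 values, so the count is no measure of robustness. Filters, narrower and wider length windows and a reference without biogenesis genes moved no median or count of the groups by more than that spread or 1.5 times.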
